A study of Mus musculus with 6 samples.

Results

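The regions described here were the 923 wide H3K4me1 peaks that were listed in unstimulated mouse macrophages and had no counterpart nearby after stimulation. They were chosen by 2 measured values. A peak of the PBS H3K4me1 list on chromosomes 1 to 19 had to be at least 400 bp wide and to have no peak of the LPS H3K4me1 list within 1000 bp of either end. These PBS-only wide peaks made up 923 of 26578 autosomal PBS peaks of that width, or 3.47%, which is a share fixed by the rule. Of the remaining wide PBS peaks, 24309 were overlapped by an LPS peak and 1346 had one within 1000 bp without overlap. The same rule applied in the other direction returned 2574 LPS-only wide peaks of 31917, or 8.06%.

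The cells were bone marrow-derived macrophages (BMDMs) of C57BL/6 mice, grown from femur and tibia marrow in medium conditioned by L929 cells, and exposed for 1 h to lipopolysaccharide (LPS) or to PBS. The study looked for enhancers that respond to LPS, the bacterial cell wall component that activates these cells. Chromatin was profiled by CUT&RUN, in which an antibody directs a nuclease to a histone mark and the released fragments are sequenced, with 1 library for each treatment and each of H3K4me1, H3K27ac and control IgG. No library had a replicate, so that no test between treatments was possible, and the intervals given below (95%, Wilson method) cover the error of counting regions and nothing else. In bulk chromatin, a weaker mark in every cell and a mark held by fewer cells cannot be told apart.

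The H3K4me1 libraries were close in depth by an estimate from the peak lists. About 6870000 fragments were inferred for PBS and 7000000 for LPS. The estimate took the lowest common background level as that of the genome and the narrowest peak as the fragment length. The median was 17 recovered fragments at the summit over all autosomal peaks of either list. The autosomal lists held 63640 PBS and 71661 LPS H3K4me1 peaks, 4120 LPS H3K27ac peaks and 52 PBS H3K27ac peaks. The labelled cell type was checked on the PBS H3K4me1 list. A peak lay in or within 10 kb of 38 of 40 macrophage identity genes, the exceptions being Cd68 and Fcgr3, against 10 of 24 genes of other blood lineages and 9 of 25 genes of stromal and other tissues. These shares were not set beside that of all protein-coding genes, and gene lengths were not compared between the lists.

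H3K4me1, histone H3 monomethylated at lysine 4, is laid down by the methyltransferases KMT2C and KMT2D at enhancers and at the flanks of promoters. In macrophages, lineage factors such as PU.1, C/EBP, AP-1 and RUNX proteins open such sites and leave many of them marked before any stimulus arrives. Acetylation of lysine 27 (H3K27ac) is added by p300 and CBP when an enhancer or promoter becomes active. Signalling through the LPS receptor, TLR4 with its partner MD-2, releases NF-kB and induces cytokine and chemokine genes within the first hour.

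Sequences of 201 bp centred on the summit are shown for 8 PBS-only wide peaks, namely 3 of the 4 strongest, the 4 at primary LPS response genes that encode secreted cytokines or chemokines, and the acetylated one upstream of Ccr2. They were read from the plus strand of the RefSeq GRCm38 assembly, 5′ to 3′. Capitals mark matches, on either strand, to the motifs PU.1 (GAGGAA), AP-1 (TGANTCA), C/EBP (TTGCNNAA), IRF (GAAANNGAA), RUNX (TGTGGT), E-box (CACGTG), CRE (TGACGTCA) and the NF-kB consensus, and matches of different motifs may overlap.
Tmtc2 intron, chr10:105500593-105500793: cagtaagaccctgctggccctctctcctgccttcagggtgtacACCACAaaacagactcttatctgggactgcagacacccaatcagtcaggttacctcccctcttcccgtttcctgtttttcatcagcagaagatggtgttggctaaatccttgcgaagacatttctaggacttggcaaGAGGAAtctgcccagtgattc
Cradd intron, chr10:95291203-95291403: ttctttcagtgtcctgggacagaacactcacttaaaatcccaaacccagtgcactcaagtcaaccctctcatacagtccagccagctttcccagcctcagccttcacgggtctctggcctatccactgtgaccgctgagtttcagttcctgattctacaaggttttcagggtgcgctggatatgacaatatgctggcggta
intergenic near Asic2, chr11:81973855-81974055: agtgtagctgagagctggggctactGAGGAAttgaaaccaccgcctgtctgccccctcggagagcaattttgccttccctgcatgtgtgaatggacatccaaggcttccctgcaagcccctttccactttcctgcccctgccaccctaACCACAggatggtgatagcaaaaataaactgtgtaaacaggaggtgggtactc
Ccl4 promoter, chr11:83662211-83662411: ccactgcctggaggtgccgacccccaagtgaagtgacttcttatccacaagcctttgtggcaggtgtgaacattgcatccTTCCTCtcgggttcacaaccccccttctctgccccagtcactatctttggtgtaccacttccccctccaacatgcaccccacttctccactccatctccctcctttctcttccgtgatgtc
Il10 intron, chr1:131021045-131021245: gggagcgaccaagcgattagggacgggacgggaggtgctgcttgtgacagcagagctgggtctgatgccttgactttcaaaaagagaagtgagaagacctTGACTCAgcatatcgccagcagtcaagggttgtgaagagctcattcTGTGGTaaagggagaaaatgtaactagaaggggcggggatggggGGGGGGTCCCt
Cxcl2 promoter, chr5:90903643-90903843: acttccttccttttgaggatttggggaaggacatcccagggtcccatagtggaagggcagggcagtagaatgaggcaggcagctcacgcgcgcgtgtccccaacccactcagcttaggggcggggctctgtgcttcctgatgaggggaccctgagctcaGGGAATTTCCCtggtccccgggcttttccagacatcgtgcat
Tnf coding exon and adjoining intron, chr17:35200449-35200649: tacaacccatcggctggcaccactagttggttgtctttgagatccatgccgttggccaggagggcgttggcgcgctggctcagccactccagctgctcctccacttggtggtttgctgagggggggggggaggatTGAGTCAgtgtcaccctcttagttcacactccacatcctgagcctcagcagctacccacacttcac
intergenic upstream of Ccr2, chr9:124068639-124068839: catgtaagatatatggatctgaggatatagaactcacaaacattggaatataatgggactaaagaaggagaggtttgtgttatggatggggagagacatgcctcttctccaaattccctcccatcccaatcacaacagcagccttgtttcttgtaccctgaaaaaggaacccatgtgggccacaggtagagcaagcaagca

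The summit windows of the Tmtc2 and Asic2 peaks each held 1 PU.1 and 1 RUNX match. The Cradd and Ccr2 windows held no match to any of the 8 motifs. At Cxcl2, which encodes a neutrophil chemokine, the NF-kB consensus had 2 overlapping matches, on opposite strands, upstream of the transcription start site (TSS). The Il10 window held 1 AP-1, 1 RUNX and 1 NF-kB match, the Tnf window 1 AP-1 match, and the Ccl4 window 1 PU.1 match. A match shows that the letters are present and not that a factor was bound.

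The PBS-only wide peaks were narrower and weaker than the wide PBS peaks overlapped by an LPS peak, and near the middle of the whole PBS list in strength. Their median width was 501 bp (range 400 to 1618 bp), their median fold enrichment at the summit 6.21 (3.32 to 15.4) and their median −log10 q 5.37 (2.06 to 22.6), each as given by the authors' peak caller. A median of 16 fragments lay at the summit (8 to 35). The wide PBS peaks overlapped by an LPS peak had medians of 695 bp, 7.58, 8.50 and 22 fragments, and all 63640 autosomal PBS peaks, of any width, had medians of 337 bp, 6.10, 5.38 and 17 fragments. These 4 quantities come from the library that chose the regions and are given as a description. The share of wide PBS peaks with no LPS peak within 1000 bp was 12.5% (348 of 2778) where fewer than 15 fragments lay at the summit, 5.02% from 15 to 19 fragments, 1.56% from 20 to 29, and 0.157% (6 of 3833) from 30 fragments upward. The depth of the LPS library sets how many weak peaks could be called there, and its part in the absence of a call was not tested.

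**Figure D1:**
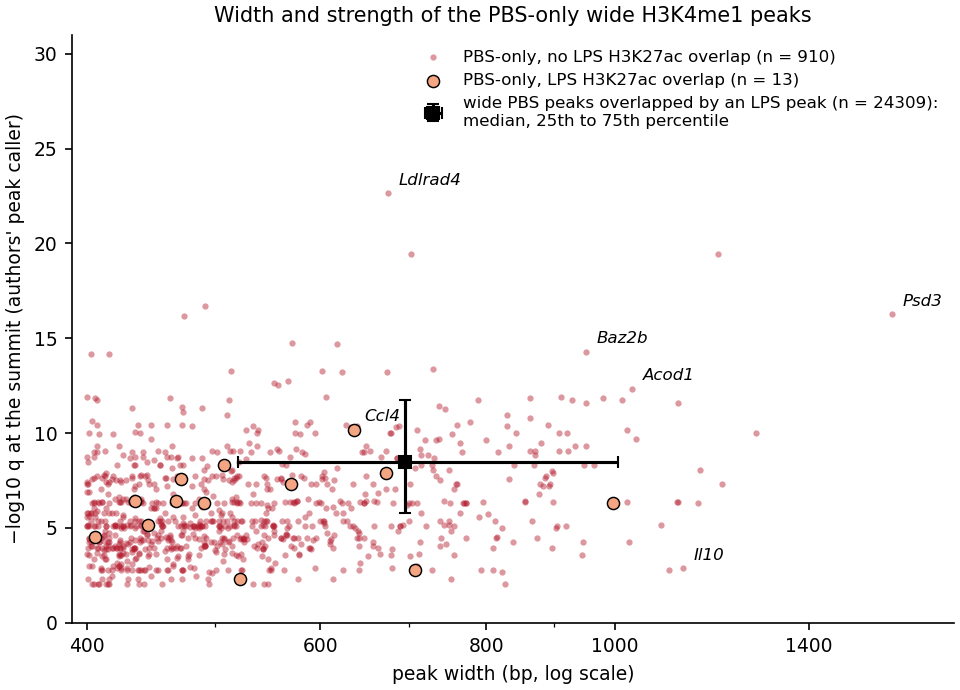
Width (log axis) against −log10 q at the summit for the 923 PBS-only wide peaks. Each point is 1 peak, with the 13 overlapped by an LPS H3K27ac peak outlined, and the black square with bars gives the median and the 25th to 75th percentile of the 24309 wide PBS peaks overlapped by an LPS peak. Most PBS-only peaks lie below and to the left of that square, with Ldlrad4 the highest and Psd3 the widest.

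**Figure D2:**
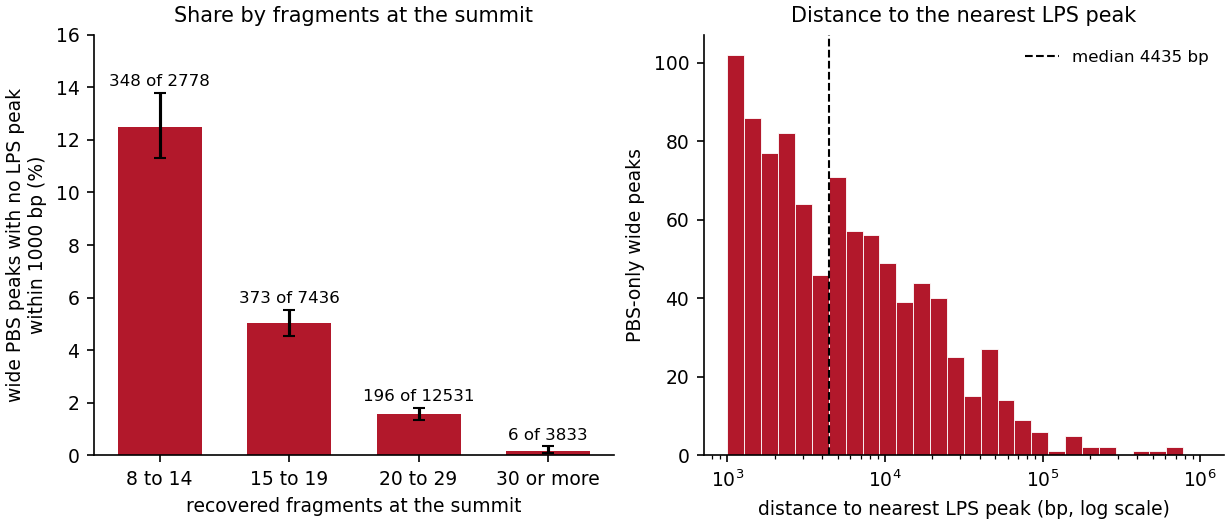
Left, the share of wide PBS peaks with no LPS peak within 1000 bp, by the number of fragments recovered at the summit, with 95% Wilson intervals; it falls from 12.5% to 0.157%. Right, the distance from each of the 923 PBS-only wide peaks to the nearest LPS H3K4me1 peak on a log axis, with the median of 4435 bp dashed.

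The strongest PBS-only wide peak lay in an intron of Ldlrad4, a membrane protein that restrains TGF-beta signalling. It spanned chr18:68130897-68131571, with a fold enrichment of 15.4, a −log10 q of 22.6 and 35 fragments at the summit, and ranked 318 in the PBS list. An LPS H3K4me1 peak with a −log10 q of 3.60 lay 1135 bp from it. Next came the introns of Cradd, which encodes a death domain adaptor, at chr10:95290896-95292090, and of Tmtc2, at chr10:105500269-105500970. Both had a fold enrichment of 13.7, a −log10 q of 19.4 and 31 fragments at the summit. The LPS list had its nearest peak 4844 bp from the Cradd peak and 6834 bp from the Tmtc2 peak. The widest region, 1618 bp at chr8:68157151-68158768 in an intron of Psd3, was also the fifth strongest, with a −log10 q of 16.3.

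The others among the 12 strongest were spread over introns, promoters and intergenic sequence. An intergenic peak at chr16:49957005-49957478, 90336 bp from the nearest protein-coding TSS, was closest to Cd47, the surface protein that signals to phagocytes not to engulf a cell. It had a −log10 q of 16.2 and 33 fragments at the summit. An intronic peak of Dock10, a guanine nucleotide exchange factor, at chr1:80630587-80631204 had a −log10 q of 14.7. An intronic peak of Arg2, the mitochondrial arginase, at chr12:79137994-79138396 had one of 14.2, and the promoter peak of Baz2b, a bromodomain protein, at chr2:60089149-60090100 one of 14.3. The remaining ones were intronic in Vwa8, at the Lrch1 promoter and intergenic near Asic2 and Hnrnpa3. None of the 12 was overlapped by an H3K27ac peak of either treatment. Over all 923 regions the share was 1.41% for LPS and 0 for PBS, so that little can be read from this.

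The distance to the nearest LPS peak was 4435 bp at the median. It exceeded 2000 bp for 675 of the 923 regions (73.1%), 5000 bp for 423 (45.8%) and 50000 bp for 46 (4.98%). The most isolated was an intronic peak of Thsd7b at chr1:129542850-129543403, with 717715 bp to the nearest LPS peak and a −log10 q of 4.85. At the limits of the rule, the 3 regions just inside the width limit were 400 bp wide, near Tpd52, near Ubl7 and in Dapk1, and the 3 just outside were 399 bp wide, near Rasal2, Kcnh2 and Sdcbp. Distances just inside the gap limit were 1001 bp at Cables2, 1003 bp in Nfkb1 and 1004 bp at Arl8b. Just outside it were peaks 998 bp from an LPS peak near Nfkbia and near Lpp, and one at 996 bp near C77080.

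The surroundings of the regions were examined for a wider shortage of LPS peaks. Between 1 and 10 kb from their ends there were 2169 PBS and 2263 LPS H3K4me1 peaks, counted once for each region they neighboured, a PBS to LPS ratio of 0.958. The wide PBS peaks overlapped by an LPS peak had 94875 and 98687 such neighbours, a ratio of 0.961. The whole autosomal lists had a ratio of 0.888. Around 231 of the 923 regions (95% interval 22.3 to 27.9%) the PBS peaks outnumbered the LPS peaks, around 293 (31.7%) they were outnumbered, and around 399 (43.2%) the numbers were equal. In the middle range of width and −log10 q, a setting chosen after seeing the data, the ratio was 0.887 (547 to 617) around 258 regions and 0.963 around 3106 overlapped peaks. Over all 923 regions, another PBS H3K4me1 peak lay within 5 kb of 61.8% (58.6 to 64.8%). Over all 24309 overlapped wide peaks the share was 87.5% (87.0 to 87.9%). The required distance to any LPS peak bears on that share.

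By position, 427 of the 923 regions lay in introns, 252 were intergenic, 196 were at promoters, 37 were in untranslated or non-coding exons and 11 in coding exons. A region counted as a promoter region when it came within 1000 bp of any annotated TSS, and the other classes were set by the summit. Promoter regions made up 21.2% (18.7 to 24.0%) of the PBS-only wide peaks, 14.2% (13.8 to 14.7%) of the overlapped wide PBS peaks and 32.7% (30.9 to 34.5%) of the LPS-only wide peaks. Introns had the reverse order between the PBS sets, with 46.3% (43.1 to 49.5%) against 57.1% (56.5 to 57.7%). The promoter difference depended on width. It was 23.6% against 14.7% at widths of 400 to 499 bp and 25.4% against 14.3% at 500 to 599 bp, whereas from 600 bp upward it was 12.7% (9.01 to 17.5%) against 14.1% (13.6 to 14.7%).

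Summits of 130 regions (14.1%) lay within 1000 bp of a protein-coding TSS, and 72 of these were upstream of it. The corresponding share was 7.49% for the overlapped wide PBS peaks. At the other end, 67 regions (7.26%) were more than 100 kb from any such TSS, against 8.13% of the overlapped wide PBS peaks and 7.46% of all autosomal PBS peaks. All 19 autosomes held some, from 2.36% (27 of 1143) of the wide PBS peaks on chromosome 15 to 5.05% (53 of 1050) on chromosome 14.

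**Figure D3:**
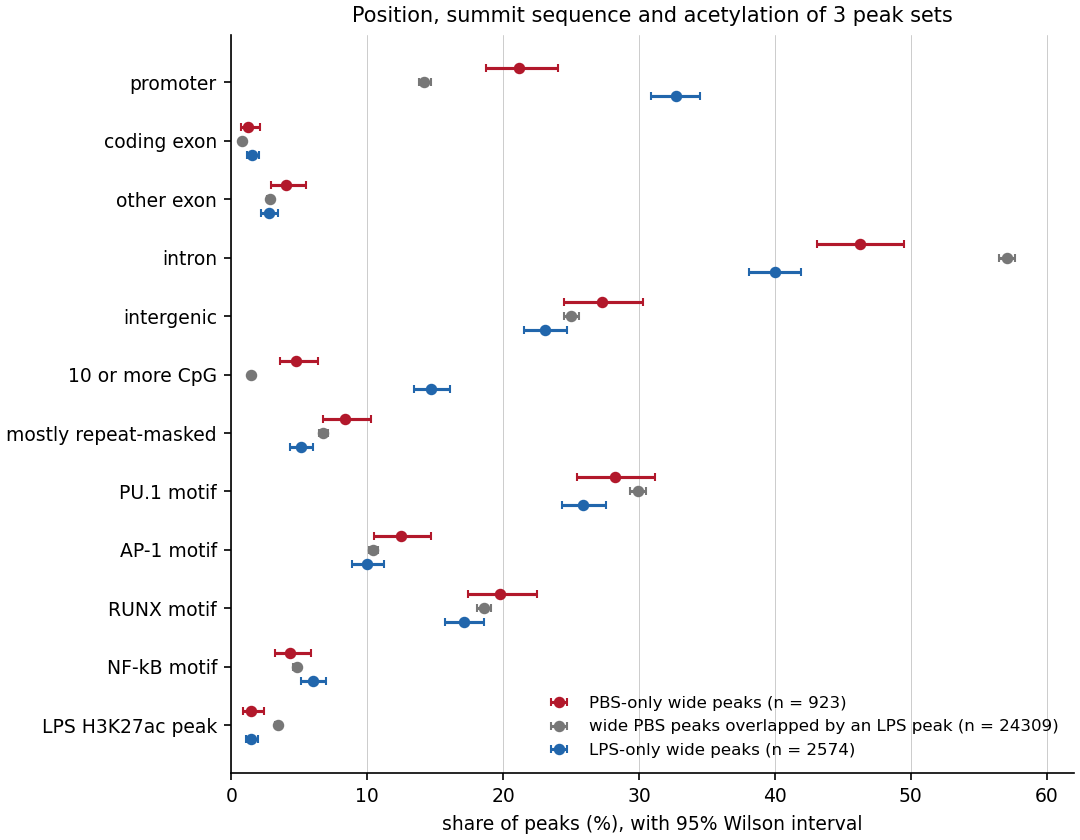
Shares of 3 peak sets by genomic position, by sequence within 100 bp of the summit and by overlap with an LPS H3K27ac peak, as points with 95% Wilson intervals. The PBS-only wide peaks (red) lie between the overlapped wide PBS peaks (grey) and the LPS-only wide peaks (blue) for promoters and CpG, and the intervals of their motif shares overlap those of the grey set.

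CpG-rich summits were more frequent among the PBS-only than among the overlapped wide PBS peaks, and less frequent than among the LPS-only wide peaks. Median GC content over 201 bp was 48.3% for the PBS-only wide peaks, 49.3% for the overlapped and 50.2% for the LPS-only wide peaks. At least 10 CpG dinucleotides were found in 4.77% (3.57 to 6.34%) of the windows, against 1.43% (1.29 to 1.59%) and 14.7% (13.4 to 16.1%). Of these 44 CpG-rich regions, 37 were at promoters. Among promoter regions alone the share was 18.9% (14.0 to 24.9%), against 7.02% (6.21 to 7.91%) in the overlapped and 40.1% (36.8 to 43.4%) in the LPS-only set. Repeats covered at least 50% of the window in 8.34% (6.73 to 10.3%), against 6.76% and 5.09%.

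Matches to motifs of macrophage lineage factors were counted in the same windows. GAGGAA, the core of PU.1 sites, was found in 28.2% (25.4 to 31.2%) of the windows, in 29.9% of those of the overlapped wide PBS peaks and in 27.1% of those of all autosomal PBS peaks. AP-1 stood at 12.5%, 10.4% and 9.47%, RUNX at 19.8%, 18.6% and 17.9%, C/EBP at 10.2%, 9.68% and 9.36%, and IRF at 7.80%, 6.56% and 6.58%. The lower limit of the AP-1 interval for the PBS-only wide peaks was 10.5%, just above the share of the overlapped set. In the middle range of width and −log10 q, PU.1 stood at 22.1% (17.5 to 27.5%) of the regions against 28.9% (27.3 to 30.5%) of the overlapped peaks, and AP-1 at 13.2% (9.59 to 17.9%) against 9.56% (8.58 to 10.6%). The NF-kB consensus was found in 4.33% (3.20 to 5.85%) of the PBS-only, 4.80% of the overlapped and 5.98% (5.13 to 6.97%) of the LPS-only windows. The E-box stood at 3.14% of the PBS-only windows, against 3.17% of the overlapped and 3.20% of all. The CRE, TGACGTCA, was present in 6 of the 923 windows (0.650%, 0.298 to 1.41%), against 0.210% of the overlapped set and 0.237% of all.

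H3K27ac peaks were rare at these regions, as in the sets compared with them. An LPS H3K27ac peak overlapped 13 of the 923 (1.41%, 0.825 to 2.39%), against 3.28% of all 26578 wide PBS peaks, and a PBS H3K27ac peak overlapped 0 of 923, which allows a share of up to 0.414% by the upper Wilson limit. With 52 peaks in the PBS H3K27ac list, the share was only 0.0658% (16 of 24309) of the overlapped wide PBS peaks, so that little can be read from the 0. For LPS H3K27ac, the share was 3.39% (3.17 to 3.63%) in the overlapped wide PBS peaks. It was 1.44% (1.04 to 1.97%) in the LPS-only wide peaks and 1.89% in all autosomal PBS peaks. Within the middle range of width and −log10 q it was 1.94% (0.831 to 4.46%) against 1.32% (0.975 to 1.79%) of the overlapped peaks. The difference from the overlapped wide PBS peaks moved with width, since those of 400 to 499 bp reached 1.73% (1.41 to 2.12%) and those of 600 bp or more 4.22%. PBS-only peaks in the same width classes stood at 1.31% (0.602 to 2.83%) and 1.69% (0.658 to 4.26%). An LPS H3K27ac peak was listed within 1000 bp of 32 regions (3.47%, 2.47 to 4.85%), against 6.18% of the overlapped wide PBS peaks and 4.81% of all autosomal PBS peaks.

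Of the 13 regions with LPS acetylation, 3 are described in full, those with the highest −log10 q of the H3K27ac peak. The highest, 9.88 with a fold enrichment of 9.32, spanned chr1:16688009-16688222 at the promoter of Ly96, the gene of the TLR4 partner MD-2. The PBS-only H3K4me1 peak under it, at chr1:16687956-16688445, had a −log10 q of 6.33, 14 fragments at the summit and an LPS H3K4me1 neighbour at 1212 bp. The next acetylated region, intergenic at chr6:53759639-53760345, was nearest to Tril, a TLR4 accessory protein whose TSS was 60682 bp away. Its H3K27ac peak had a −log10 q of 8.89, and the nearest LPS H3K4me1 peak was 41746 bp distant. The third was the promoter of Ccl4, the chemokine MIP-1 beta. Its H3K4me1 region spanned chr11:83661815-83662450, with a −log10 q of 10.2 and 19 fragments at the summit, and an LPS H3K27ac peak at chr11:83661730-83661866 with a −log10 q of 6.33 covered the end away from the gene. The other acetylated regions were at, in or near H2-T24, Fgd2, Ulk1, Plek, Ubxn4, Ccdc173, Oasl2, Rnf121 with Il18bp, and Card19, and upstream of Ccr2. Their H3K27ac peaks had −log10 q values from 2.26 to 6.06. An overlap of 1 bp was enough, and at Card19 the H3K27ac peak began at chr13:49213976 while the region ended at 49213979. No PBS H3K27ac peak overlapped any of the 13, as for all 923 regions, and with 52 autosomal peaks in that list little can be read from this.

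The regions were set beside gene lists of the LPS response and of macrophages. A PBS-only wide peak lay in or within 10 kb of 805 of 20807 autosomal protein-coding genes, or 3.87%, and of 10.9% of the 7363 genes with any wide PBS peak in that window. Of 46 primary LPS response genes, 9 had one (19.6%, 10.7 to 33.2%), or 9 of the 33 with a wide PBS peak (27.3%, 15.1 to 44.2%). LPS-only wide peaks lay near 4 of these 46 genes (8.70%, 3.43 to 20.3%), namely Dusp1, Dusp2, Irf1 and Myc, and near 2495 of the 20807 genes. Of all 8769 genes with a wide LPS peak, 28.5% had an LPS-only one, against 4 of 34 primary response genes. In each of the 6 lists, 0 or 1 gene had both kinds of peak, with 0 among the primary response genes. The share of all genes with both kinds was not computed, so that these low counts cannot be read as a separation of the 2 kinds of peak. Wide PBS peaks of any kind lay in the gene bodies of 14 of the 46 genes and wide LPS peaks in 7, while within 10 kb the numbers were 33 and 34. Of these 14 genes, 7 held a PBS-only wide peak, which the rule chose for lacking an LPS peak nearby. Gene-body numbers were 13 and 16 for late or interferon response, 23 and 27 for macrophage identity and 20 and 23 for Toll-like receptor signalling genes. Shares over all genes were not computed, so that these gene-body numbers do not show a trait of the primary response genes. Among 33 late or interferon response genes the numbers were 2 with a PBS-only (6.06%, 1.68 to 19.6%) and 9 with an LPS-only wide peak (27.3%, 15.1 to 44.2%). Macrophage identity genes had 3 of 40 (7.50%) and 9 of 40, and Toll-like receptor signalling genes 6 of 32 (18.8%, 8.89 to 35.3%) and 8 of 32. Genes of other blood lineages (24) and of stromal and other tissues (25) had 0 each with a PBS-only wide peak and 4 each with an LPS-only one. Genes of these lists share loci, and a difference between lists was not tested.

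**Figure D4:**
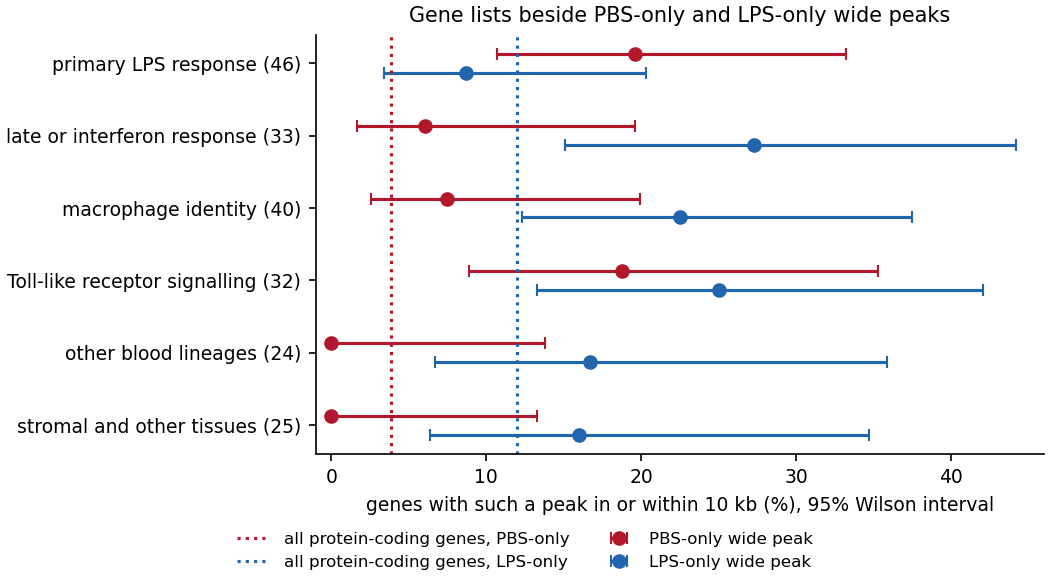
Share of the genes of 6 lists with a PBS-only (red) or LPS-only (blue) wide H3K4me1 peak in the gene or within 10 kb, with 95% Wilson intervals and the number of autosomal genes in brackets. Dotted lines give the shares over all 20807 protein-coding genes, 805 for PBS-only and 2495 for LPS-only peaks. The primary LPS response list is the one whose red point lies right of its blue point, and the intervals of both points overlap.

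The 9 primary response genes with a region were Il10, Cxcl2, Tnf, Ccl4, Tnfaip3, Nfkbia, Zc3h12a, Rel and Klf6. In Il10, the gene of the anti-inflammatory cytokine IL-10, the region at chr1:131021134-131022258 was 1125 bp wide and intronic, with a fold enrichment of 3.89, a −log10 q of 2.88 and 20 fragments at the summit. It was broad but ranked 848 of the 923 by −log10 q, and the nearest LPS peak was 2196 bp away. At Cxcl2 the region at chr5:90903391-90903885 reached over the TSS, with a −log10 q of 2.69 and a fold enrichment of 3.32, the lowest of all 923. In Tnf, a region at chr17:35200262-35200826 had its summit in a coding exon, 1458 bp from the TSS, with a −log10 q of 4.64 and 15 fragments.

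Tnfaip3 encodes A20, a ubiquitin-editing inhibitor of NF-kB signalling. It had the strongest region of the list, in a non-coding part of an exon at chr10:19002069-19002805, with a −log10 q of 11.4, 23 fragments and 6193 bp to the nearest LPS peak. Nfkbia, which encodes the NF-kB inhibitor I-kappa-B-alpha, had one 443 bp beyond its 3′ end at chr12:55488194-55488966, with a −log10 q of 4.49. Zc3h12a, whose product Regnase-1 degrades cytokine mRNAs, had one in an intron at chr4:125124406-125124970, with a −log10 q of 4.68 and an LPS peak 1089 bp away. The 2 remaining genes encode transcription factors. Rel had an intronic region with a −log10 q of 5.08, and Klf6 one in a non-coding part of an exon, also at 5.08, with an LPS peak 1065 bp away.

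In the other lists, Acod1, the gene of the enzyme that makes itaconate, held the strongest region, intronic at chr14:103048341-103049371, 1031 bp wide, with a −log10 q of 12.3 and 27 fragments. Its nearest LPS H3K4me1 peak was 1426 bp away. Oasl2, an interferon-induced gene, had a promoter region at chr5:114896954-114897398 with a −log10 q of 5.14, its nearest LPS H3K4me1 peak at 28772 bp and an LPS H3K27ac peak overlapping it. In the Toll-like receptor list, Nfkb1 (the p105 and p50 subunit of NF-kB) had 2 intronic regions with −log10 q of 8.36 and 4.49, and Map3k7 (the kinase TAK1) and Map3k8 (the kinase TPL2) had 1 intronic region each. The regions counted for Irf3 and Ikbkb were nearer to other genes, at a promoter next to Prmt1 and at the Polb promoter. Of the macrophage identity genes, Mitf held 3 intronic regions, Runx1 2 and Pparg 1, with −log10 q from 2.81 to 9.06. Nfkb1 and Runx1 also had an LPS-only wide peak in or within 10 kb.

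The cytokine genes set for closer description were Il6, Il10, Il1b, Tnf, Lta and Ltb. Tnf, Lta and Ltb lie together and shared the 1 region in the Tnf gene body as the only PBS-only wide peak within 10 kb. A further pair lay 16443 and 17441 bp from Tnf on the far side of Lta, at chr17:35218451-35219220 and chr17:35219449-35220015, with −log10 q of 6.33 and 7.40. No region lay within 10 kb of Il6, whose only PBS peak there was 222 bp wide with a −log10 q of 2.78, or of Il1b, whose widest PBS peak there was 166 bp.

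Some genes and loci held several regions. Of 499 protein-coding genes or overlapping gene pairs with a region in the gene body, 49 held at least 2 and 7 at least 3. Neither gene length nor the number of wide PBS peaks per gene was set beside these counts. Rere, a nuclear receptor corepressor, held 4 intronic regions with −log10 q from 6.33 to 8.14. Cdk19 (a kinase of the Mediator complex), Mitf, St7, Foxp1 with the overlapping model Gm20696, Plek and Hdac9 held 3 each. When regions less than 50 kb apart were joined, 739 stood alone, 148 formed 74 pairs and 36 formed 12 groups of 3. The groups lay at Ly96 with Eloc, Plek, Rnf19a, Tnf, Spred1, Mapre1 with Efcab8, Sdc4 with Sys1, Rere, St7, Mitf, Foxp1 and upstream of Ccr2.

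Plek, the gene of pleckstrin, a major substrate of protein kinase C in blood cells, showed the largest difference between the lists among the 4 loci drawn. Within 25 kb of its middle region there were 15 PBS H3K4me1 peaks, the 3 regions included, 2 LPS H3K4me1 peaks and 3 LPS H3K27ac peaks. The 3 regions spanned chr11:16977478-16978633, chr11:16987540-16988217 and chr11:17004731-17005197, with −log10 q of 6.33, 9.99 and 6.43 and 21, 19 and 17 fragments at the summit. The nearest LPS H3K4me1 peaks were 19447, 13351 and 2994 bp away. An LPS H3K27ac peak with a −log10 q of 3.23 overlapped the third of the regions. That peak ended at chr11:17004846, short of the summit of the region at 17005135. The LPS lists thus held an H3K27ac peak but no H3K4me1 peak there.

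Upstream of Ccr2, the gene of the receptor for monocyte chemoattractant proteins, 3 regions stood within 4051 bp, from chr9:124067113 to 124071163, between 30786 and 34083 bp from the gene. Their −log10 q was 9.93, 6.33 and 6.33, and LPS H3K4me1 peaks flanked them at 1185 bp on one side and 1108 bp on the other. Here 14 PBS and 14 LPS H3K4me1 peaks lay within 25 kb of the middle region, and the regions without LPS peaks made up a short stretch of the locus. At Tnf the numbers were 11 and 7, and at Il10 10 and 6. The PBS numbers include the PBS-only wide peaks, 3 each at Plek, Tnf and upstream of Ccr2 and 1 at Il10. The rule barred LPS peaks at those and within 1000 bp of them, which fixed part of any PBS excess in advance.

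**Figure D5:**
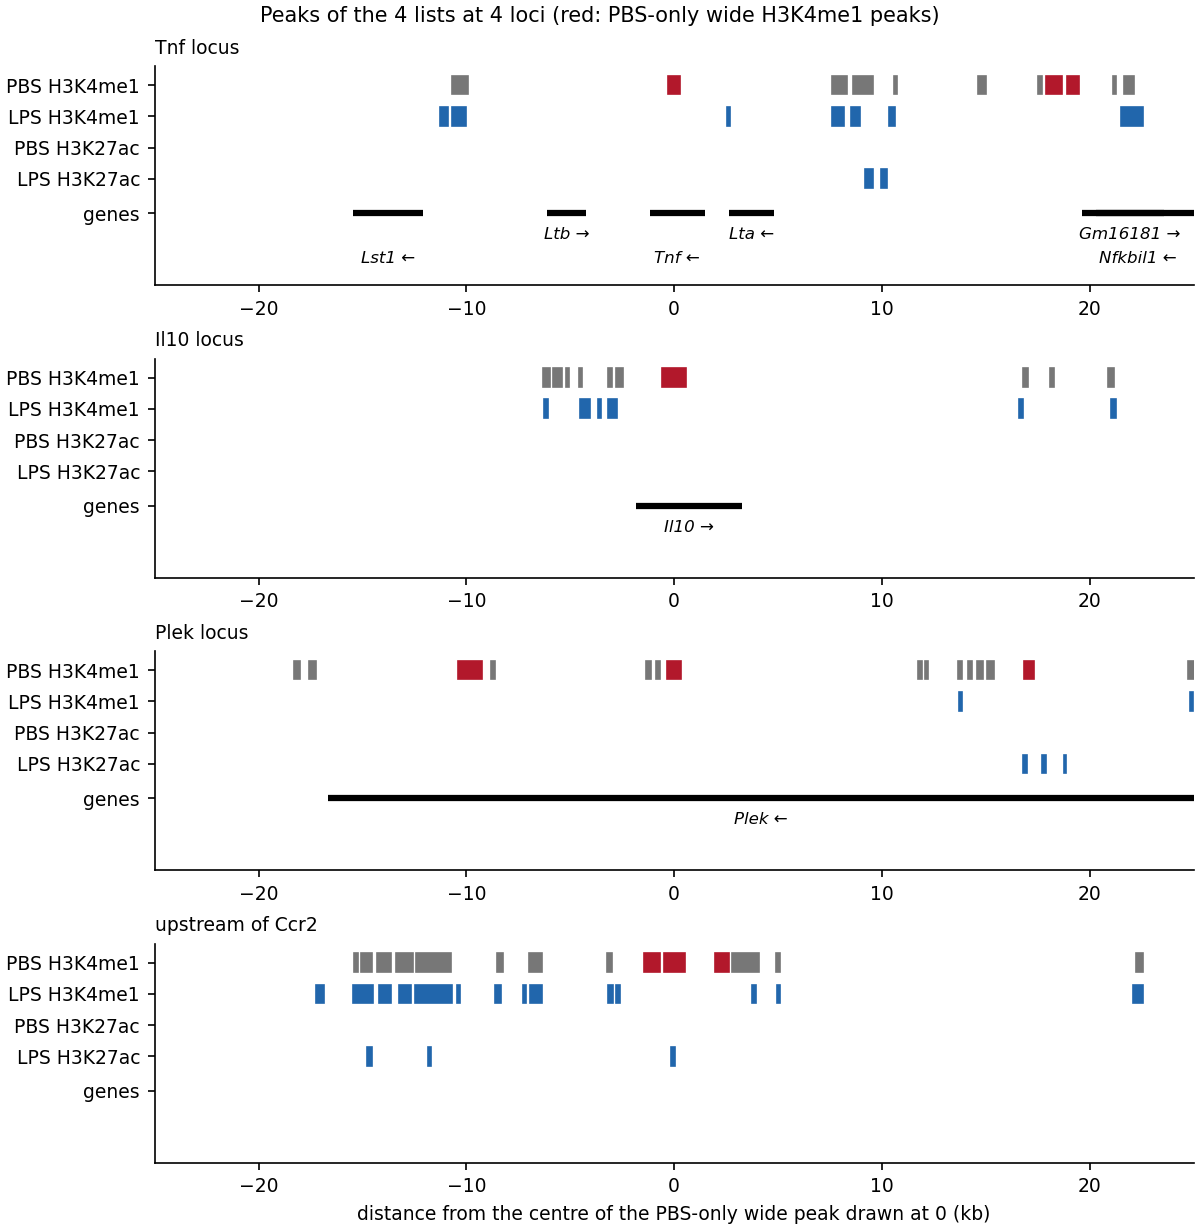
Peaks of the 4 lists within 25 kb of a PBS-only wide H3K4me1 peak at Tnf, Il10, Plek and upstream of Ccr2, drawn to scale by distance in kb, with protein-coding genes below and arrows for their strand. PBS-only wide peaks are red, other PBS peaks grey and LPS peaks blue. At Plek 15 PBS face 2 LPS H3K4me1 peaks, and upstream of Ccr2 14 face 14, with the PBS-only wide peaks counted among the PBS peaks.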

How the data were processed

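Per the labels and the study's methods, the authors aligned trimmed read pairs to GRCm38 (Bowtie2 2.4.4), removed blacklisted regions and called peaks in each library with MACS2 2.2.7.1. The deposited lists give a fold enrichment (a ratio to local background), the −log10 of p and of q at the summit, and a score derived from q, which was not used. IgG libraries are not described here. Widths, distances and overlaps (1 bp) were computed with Python 3.11.15 code checked against bedtools 2.31.1. Positions came from GENCODE M21, another release than the authors'. Fragments at a summit were recovered from fold enrichment and p, a procedure tested on simulated data; 1 scaling per library matched 40 of 40 frequent value pairs within 0.002.

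The regions, gene lists and motifs were chosen with earlier results of these data known, so that no list is independent evidence. Named regions were the 12 strongest, the 5 widest, those in or within 10 kb of list genes, those overlapped by H3K27ac, those of genes or groups with 3 or more, and 3 on either side of each limit. The rule allowed 10 acetylated regions and 5 genes and groups; all 7 and 12 are named because of ties, and all 13 acetylated regions, beyond the rule. Cxcl11 and Mx2 were not matched by symbol, and Gata1 is not autosomal. Alternatives changed the gap, width, q limits and windows.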

Additional observations from a re-analysis of the deposited data

How the results depend on the processing

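No paired analysis was possible because each treatment and mark had a single library. Of 64 alternative values, 43 stayed within the counting interval of the reported value or within 1.5 times a count, and 21 did not. The number of regions was 2269 when overlap alone was barred, 423 with a gap of 5000 bp, 1858 from a width of 300 bp, 237 from 600 bp, 584 with a PBS −log10 q of at least 5 and 1491 when LPS peaks needed a −log10 q of at least 3. The promoter share was 12.7% from a width of 600 bp, 18.3% with a PBS −log10 q of at least 5, 36.3% with a promoter window of 2500 bp and 26.4% within the middle range of width and −log10 q. That last setting was chosen after seeing the data. There, overlapped wide PBS peaks stood at 15.5%, and acetylation was 1.94% (0.831 to 4.46%) against 1.32% (0.975 to 1.79%). In the same setting 22.1% of the regions held a PU.1 match and 6.59% at least 10 CpG, against 28.9% and 2.25%, and PBS peaks made up 47.0% of the neighbours at 1 to 10 kb, against 48.9% for all regions. Acetylation was 0.709% with a gap of 5000 bp and 3.47% within 1000 bp. The mostly repeat-masked share was 5.91% with a gap of 5000 bp and 4.55% over whole peaks, and median GC content over whole peaks was 46.9%. Within 50 kb, 16 of 46 primary response, 4 of 33 late response and 5 of 40 identity genes had a region, against 7.89% of all 20807 genes. The causes were not tested.

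Depth limits what an absent LPS peak can mean. The median region had 16 fragments at the PBS summit, a peak below the threshold is not listed, and the lists hold no signal outside peaks, so that the LPS level at these regions is unknown. Absence from the LPS list is the absence of a call.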
